A study of Mus musculus with 4 samples.

Results

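Cytosolic ribosomal protein genes encode the protein parts of the ribosome, the particle that translates messenger RNA. They were chosen here by symbol alone, as Rpl or Rps followed by a digit, with Rplp0, Rplp1, Rplp2 and Rpsa, and without pseudogene symbols (9 symbols holding -ps) and the Rps6k kinases. The rule gave 86 of the 31053 genes counted, none of them chosen by a measured value. Of these, 77 are standard ribosomal proteins, 31 of the small and 46 of the large subunit. The other 9 are variants: the paralogues Rpl3l, Rpl7l1, Rpl10l, Rpl22l1, Rpl36al, Rpl39l, Rps27l and Rps27rt, and Rps19bp1, a nucleolar protein that binds Rps19 and is no part of the ribosome. Rpl10l, a paralogue known from testis, had 0 UMIs in all 4 libraries, which allows up to 3 UMIs in each.

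The small subunit decodes the message and the large subunit joins the amino acids. Growing cells make the proteins of both in matched amounts, and their mRNAs are stable and abundant. Most of these mRNAs begin with a C followed by a short run of pyrimidines, the 5′ terminal oligopyrimidine or TOP motif, through which mTOR and the RNA-binding protein LARP1 control their translation. In blood cells, naive lymphocytes are known for a large share of ribosomal protein mRNA in a small cell, and mature neutrophils for little translation machinery.

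The cells were lung leukocytes of Balb/c mice, taken 14 days after 4T1 cells had been injected into a vein (4T1 is a carcinoma line of the mouse mammary gland that lodges in the lung). The injected 4T1 cells were wild type in 2 libraries (WT 1 and WT 2) or PD-L1 knockout in the other 2 (PD-L1 KO 1 and PD-L1 KO 2), and the mice had no other allele or agent named in the labels. PD-L1 binds PD-1, which restrains T cells. Leukocytes were enriched with beads against CD45, a surface protein of all leukocytes, and counted by droplet sequencing of transcript 3′ ends, in which a UMI marks 1 captured molecule. No label ties a library to a mouse of its own, so p-values measure only the spread between libraries, which may be technical. File names and sample labels disagreed on the condition of every library, each file being named for the other condition, and each direction between WT and PD-L1 KO rests on the labels. The knockout is in the injected cells, so Cd274, the gene of PD-L1, does not check it in host leukocytes. Its level there was 30.3 and 22.9 CPM (UMIs scaled to a common library total) in WT and 46.9 and 38.7 in PD-L1 KO. The libraries held 17618220 to 19635983 UMIs in 2370 to 2736 barcodes, and 9040 of 10382 barcodes were kept as cells, with a median of 4386 to 5512 UMIs per cell in the 4 libraries. No pair of libraries had more than 3 barcodes in common.

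Cells were put into classes by marker genes that are no ribosomal protein genes. A cell needed at least 3 markers of its class and few of any other, and the 8 classes with at least 20 cells in every library held 5264 cells. A further 3136 cells (34.7%) carried markers of more than 1 class and 449 cells (4.97%) too few markers, and they enter only the values over all cells. Within their class, T, B and endothelial cells had a median of 7 own markers, as did monocytes/macrophages, neutrophil and alveolar macrophage cells 8, NK and dendritic cells 4. The median number of markers of any other panel was at most 2, the 2 being monocyte/macrophage markers in alveolar macrophages. Endothelial cells bear no CD45 and were present in this CD45 selection as 68 to 205 cells per library.

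Annotated starts are shown first for a selection of the members named in the results, standard members that open with a pyrimidine run and others that do not, the near-identical pair Rps27 and Rps27rt, and 3 other variants. Each line gives 30 bases, 5′ to 3′, from RefSeq on GRCm38.p6. The 15 bases before the annotated start are in lower case and the 15 bases from it in capitals. Of the 86 members, 66 had an entry in this table. Where it lists several starts (3 for Rps19, 2 each for Rpl10a and Rps27l), the first is shown.

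Rplp2 (chr7:141447636-141447665, + strand): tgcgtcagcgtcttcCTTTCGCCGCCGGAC
Rps10 (chr17:27635230-27635259, - strand): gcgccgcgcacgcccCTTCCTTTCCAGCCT
Rps9 (chr7:3704026-3704055, + strand): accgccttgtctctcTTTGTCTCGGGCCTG
Rpl12 (chr2:32961697-32961726, + strand): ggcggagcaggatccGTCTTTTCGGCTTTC
Rpsa (chr9:120127751-120127780, + strand): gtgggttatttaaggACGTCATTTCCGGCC
Rps19 (chr7:24884577-24884606, + strand): tccgaaatctcgcgaGACTCGACGCCCGAC
Rpl4 (chr9:64173372-64173401, + strand): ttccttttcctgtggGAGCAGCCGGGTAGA
Rpl10a (chr17:28328456-28328485, + strand): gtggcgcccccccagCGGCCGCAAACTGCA
Rps27 (chr3:90213634-90213663, - strand): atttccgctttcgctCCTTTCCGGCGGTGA
Rps27rt (chr9:114982725-114982754, - strand): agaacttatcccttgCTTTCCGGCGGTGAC
Rps27l (chr9:66946071-66946100, + strand): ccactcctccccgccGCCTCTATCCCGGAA
Rpl22l1 (chr3:28805493-28805522, + strand): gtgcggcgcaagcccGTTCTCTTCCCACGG
Rpl36al (chr12:69184053-69184082, - strand): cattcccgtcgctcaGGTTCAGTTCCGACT

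The annotated starts of Rplp2, Rps10, Rps27 and Rps27rt open with C and a pyrimidine run, and those of the other members shown do not. Rps9 opens with T, and Rpl12, Rps27l and Rpl22l1 with G, each followed directly by pyrimidines. Rpsa opens with A, Rps19, Rpl4 and Rpl36al with G followed by a purine, and Rpl10a with C followed by G. In the whole table, 13 of 57 standard members (22.8%) had a start that opened with C followed by 3 pyrimidines, against 4.49% of all 27025 genes, so most standard members did not have one at an annotated start. Annotated starts need not be those used in these cells, and counts of 3′ ends do not show the starts used. The letters CTTTC occurred on the sense strand of these 30-base windows in 16 of the 57 standard members (28.1%), against 4.76% of all genes in the table. CCGGAAG, a core shared by sites of ETS family factors, was found on either strand of the 300 bases around the start in 42.1% of standard members and 9.93% of all genes. A match of this core on the opposite strand can overlap CTTTC by its end letters. These are matches of letters and describe no binding or translation.

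The printed starts of Rps27 and Rps27rt are nearly the same letters after the start, shifted by a base. Rps27rt, on chromosome 9 from 114982366 to 114982739, is a retrocopy of Rps27. In the longest protein-coding transcripts of GENCODE M21, 310 of 310 aligned bases were identical between them, so reads could be split between this pair and their separate values are uncertain. The other paralogues matched less: Rpl36al to Rpl36a over 400 bases at 85.0% identity, Rpl10l to Rpl10 at 84.2%, Rpl39l to Rpl39 at 81.4%, Rps27l to Rps27 at 78.3%, Rpl22l1 to Rpl22 at 77.3% and Rpl3l to Rpl3 at 77.2%. Another counted gene overlapped 3 members on the same strand (Rpl13, Rpl13a and Rpl36al) and 21 members on the opposite strand. The sources used here do not tell whether the counting used strand, so those members are less certain.

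Over all kept cells, ribosomal protein genes made up 17.0% of UMIs in WT 1 and WT 2, 16.7% in PD-L1 KO 1 and 16.9% in PD-L1 KO 2. The 4 libraries lay close together (16.9% ± 0.179, SD, n = 4). In whole libraries, fewer cells of a type and less RNA per cell cannot be told apart. Among the most counted members were Rps29 at 5034 ± 721 CPM, Rplp1 at 4451 ± 182, Rps24 at 4208 ± 105 and Rpl13 at 3794 ± 40.9. These are counts of 3′ ends, which were not divided by transcript length. No single gene carried the total: the 10 most counted members held 23.1% of ribosomal protein UMIs, and the variants 0.664%. The standard proteins are present once per ribosome, except the stalk proteins Rplp1 and Rplp2, yet standard members ranged from 78.0 CPM for Rpl29 to 5034 CPM for Rps29.

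The share differed several-fold between cell classes, in the same order of the extremes in every library. T cells held 30.6 and 33.2% in the WT libraries and 30.3 and 30.1% in the PD-L1 KO libraries. B cells held 27.7, 25.7, 24.5 and 27.3%. T and B cells lay above every other class, NK cells among them, in every library. Dendritic cells (18.9% ± 1.29, SD, n = 4) and NK cells (18.6% ± 0.952) overlapped, and neither was separated from the other beyond its spread. Monocytes and macrophages stood at 15.96% ± 0.640, alveolar macrophages, the resident macrophages of the airspaces, at 11.98% ± 0.399 and endothelial cells at 9.34% ± 0.536. Neutrophils were lowest, with 4.36, 4.92, 3.58 and 4.22%. The T cell share was 7.34 ± 0.757 times that of neutrophils (SD over 4 libraries, range 6.76 to 8.45). These shares rest on 4 libraries each, and their 95% Wilson intervals, which cover counting error only, reached at most 0.167 points to either side in these 8 classes.

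**Figure D1:**
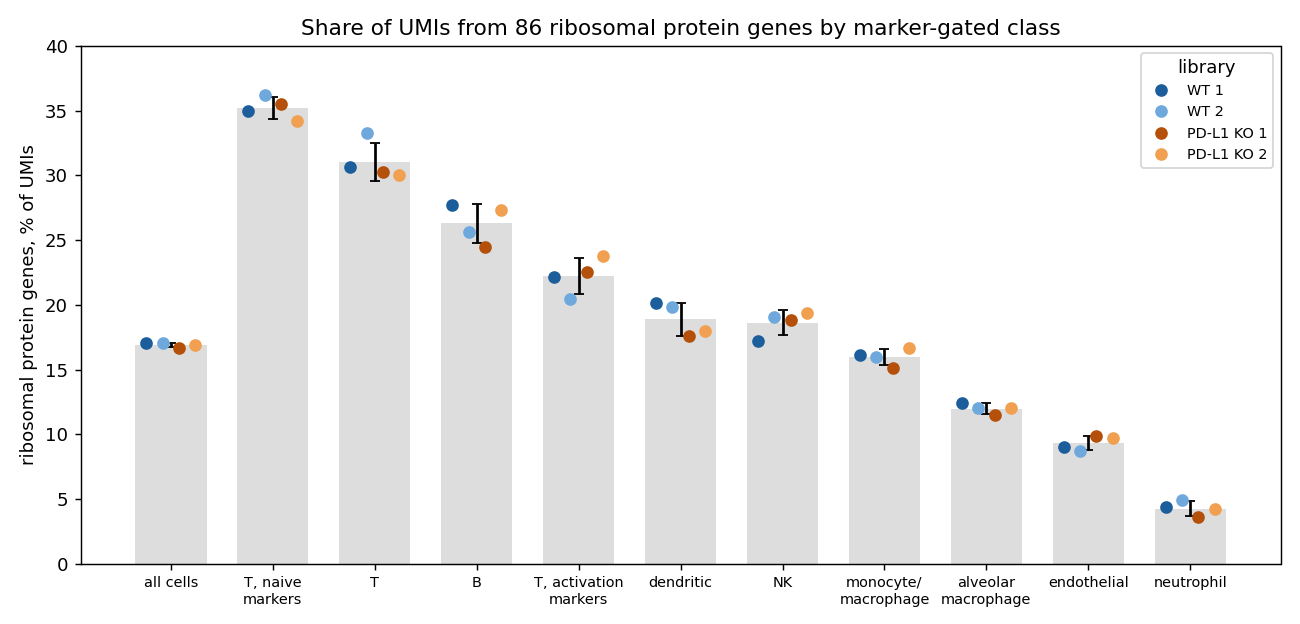
Percentage of all UMIs from the 86 ribosomal protein genes (y axis) in all cells and in each marker-gated class (x axis); bars are means of 4 libraries, error bars SD, points the libraries. T cells with naive markers stand highest at 35.2% and neutrophils lowest at 4.27%, in each of the 4 libraries.

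A high share did not mean many molecules. The median cell held 1973 ribosomal protein UMIs in dendritic cells, 1406 in T cells, 1148 in alveolar macrophages, 1006 in monocytes and macrophages, 696 in B cells, 441 in NK cells, 244 in endothelial cells and 50.6 in neutrophils (means of the library medians). Alveolar macrophages, with a median of 9644 UMIs per cell, thus held more ribosomal protein UMIs than B cells, with 2792 per cell, at less than the B cell share. Depth moved with the share inside some classes. When each class was divided by UMIs per cell into 3 equal parts, NK cells of the lowest part held 13.5% ± 0.499 and those of the highest part 22.2% ± 1.44 (SD, n = 4 libraries), while in alveolar macrophages the values were 12.3% ± 0.817 and 11.8% ± 0.535. The part of depth in the class values was not tested. Thinning cells to 1000 UMIs gave 17.0% for NK cells and 3.57% for neutrophils. A random draw of UMIs leaves each cell's expected share unchanged and gives all cells equal weight, so thinning cannot show that part. Thinning left out the 400 of 9040 cells below that depth, among them 101 of 469 endothelial cells, 78 of 1391 neutrophils and 1 of 381 NK cells.

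The standard members moved between classes nearly as a block. Of the 77, 76 were highest in T cells among the 8 classes, and Rpl10, which helps shape the large subunit's peptide joining centre, was highest in dendritic cells. Neutrophils were the lowest class for 74 members. The exceptions were Rps27, lowest in alveolar macrophages, and Rps9 and Rps27a, lowest in endothelial cells. The ratio of the highest to the lowest class mean ran from 3.05 for Rps9 to 20.4 for Rpl12, with a median of 8.04. The order of the members by level also differed little: the Spearman correlation of member levels across genes, a description only because genes share libraries and depth, ran from 0.818 between T cells and neutrophils to 0.979 between monocytes/macrophages and dendritic cells.

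**Figure D2:**
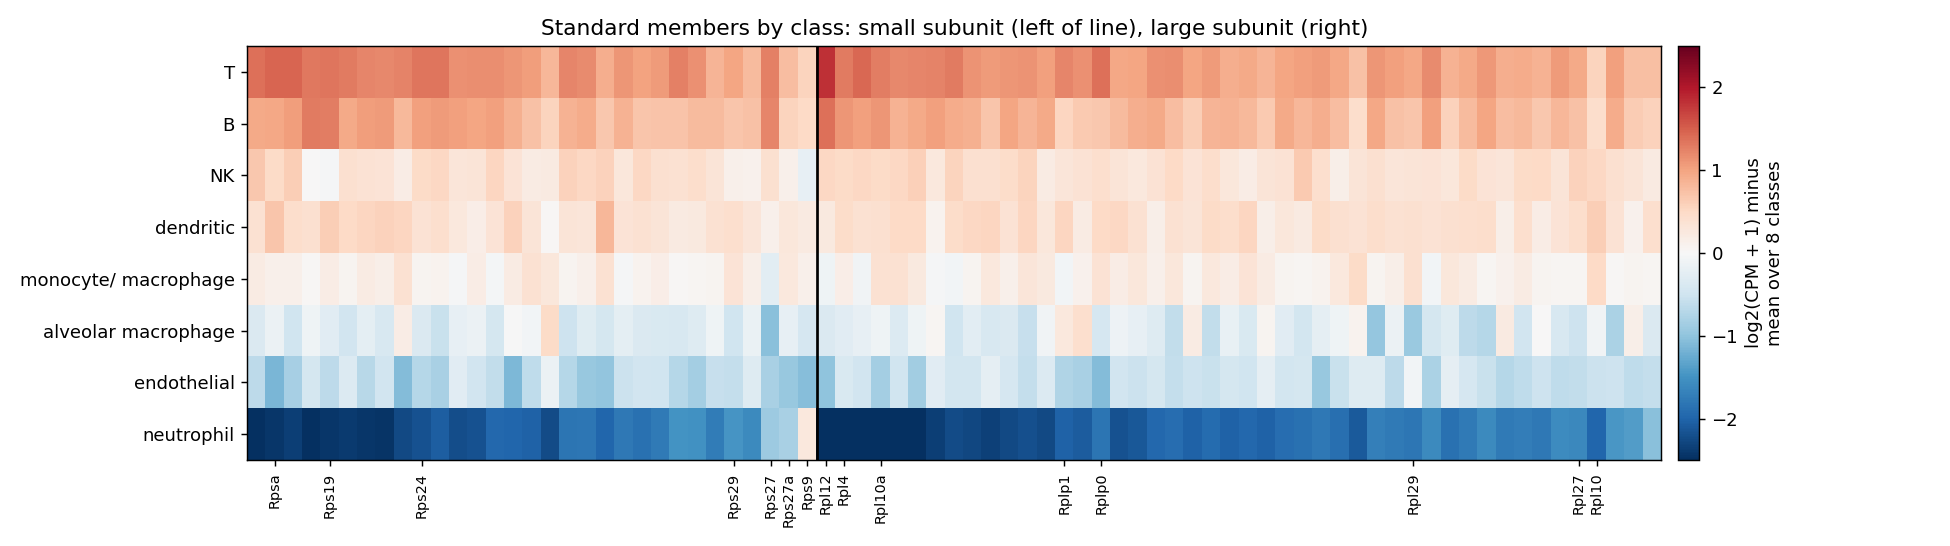
Each column is a standard member (small subunit left of the line, large subunit right; some are labelled), each row a class; colour is the log2 of mean CPM + 1 over 4 libraries minus that gene's mean over the 8 classes. The T and B rows are raised and the neutrophil row lowered across nearly all columns, with Rps9 the neutrophil cell that is not blue.

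Differences between classes were tested gene by gene with edgeR's quasi-likelihood test on UMIs summed per class and library, with the library as a block and Benjamini-Hochberg adjustment over all genes tested. Values are log2 differences ± SE after TMM scaling, which centres on the bulk of genes. In 5 of the 7 pairs, scaling by library totals moved the split of all calls by more than 10 percentage points. The median of all genes under totals was then -0.91 for neutrophils against monocytes/macrophages (-0.17 with TMM), 0.20 for NK against T, 0.20 for alveolar against other macrophages, -0.20 for dendritic cells against monocytes/macrophages and -0.30 for naive against activation-marked T cells. The share of calls that were higher was 26.3, 67.2, 62.4, 37.4 and 24.2% in these pairs under totals, against 46.3, 47.3, 48.0, 51.4 and 50.5% with TMM. The median of the members minus that of all genes was nearly the same under both scalings in all 7 pairs (in neutrophils -1.28 under both). Of the 86 members, 83 or 84 passed the filter on low counts in each pair. Pairs that share monocytes/macrophages or T cells share those counts and are not independent of each other.

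T cells exceeded monocytes and macrophages in almost the whole family. Of 83 members tested, 77 were higher and 3 lower at adjusted p under 0.05, where 31.6% of all genes tested were higher and 31.7% lower. The members' median log2 difference was 0.89, against 0.04 for all genes. Rpl12, whose product sits at the base of the stalk that recruits elongation factors, had 5554, 6246, 5436 and 5034 CPM in T cells (4 values run from WT 1 and WT 2 to PD-L1 KO 1 and PD-L1 KO 2 throughout). In monocytes and macrophages it had 1514, 1333, 1431 and 1566 CPM. The groups did not overlap, and the log2 difference was 1.90 ± 0.11 (edgeR adjusted p = 6.74e-11). Rpl5, part of the particle that holds p53's regulator MDM2 in check, followed with 1.498 ± 0.10, then Rps27 with 1.49 ± 0.09 and Rps27rt with 1.39 ± 0.12. Near the members' median stood Rpl7 (0.89), Rps14 (0.89), Rpl23a (0.89) and Rpl10a (0.88). The 3 lower members were variants: Rps27l, a paralogue induced by p53 (-1.11 ± 0.11), Rps19bp1 (-0.76 ± 0.17) and Rpl7l1 (-0.43 ± 0.16). Rpl10 (0.03), Rpl7a (0.22) and Rpl36al (0.15) were not called. With the stricter cell filter, of at least 500 genes and at most 5% mitochondrial UMIs, 1 member was lower, and the share of all genes in that fit is not given here.

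B cells had a lower share than T cells in every library. Of 83 members 1 was higher and 32 lower than in T cells, against 18.3% higher and 18.8% lower of all genes, and the members' median was -0.20 (all genes 0.00). The stalk proteins, which contact the translation factors, led the lower members. Rplp1 had 5814, 5083, 5180 and 5981 CPM in B cells and 8749, 9738, 8589 and 8023 in T cells, with no overlap. Rplp0 (-0.69 ± 0.10), Rplp1 (-0.66 ± 0.10), Rps16 (-0.53 ± 0.09) and Rplp2 (-0.47 ± 0.10) were the 4 lowest called by edgeR. Rps29, Rps7, Rpl19 and Rpl36al lay between -0.25 and -0.27, in the middle of the called members, and each lost its call under at least 1 alternative. Rps19bp1 was the member that was higher (0.80 ± 0.20, edgeR adjusted p = 0.0031). The number of lower members depended on the libraries: 9 without PD-L1 KO 1, 17 without WT 2 and 24 to 32 without either of the others. It was 15 with DESeq2, 11 with the strict cell filter and 78 of 82 with a stricter gate, where the members' median was -0.49. The share of all genes called in these alternative fits is not given here, so these counts cannot be set against a background.

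NK cells held less than T cells in 80 of 83 members, with none higher, against 13.8% lower and 12.3% higher of all genes. The median of the members was -0.91, and that of all genes -0.02. Rps19, a small subunit protein mutated in Diamond-Blackfan anaemia, had 1885, 2351, 2097 and 2237 CPM in NK cells and 5519, 6203, 5277 and 5202 in T cells. Its log2 difference was -1.60 ± 0.08, followed by Rps20 (-1.53 ± 0.08), Rpl12 (-1.53 ± 0.08) and Rps28 (-1.29 ± 0.09). Rps18, Rpl3, Rps25 and Rps10 marked the middle of the family, with values from -0.90 to -0.92. The members not called were Rps27l (0.24), Rps19bp1 (0.16) and Rpl7l1 (-0.27), all variants.

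**Figure D3:**
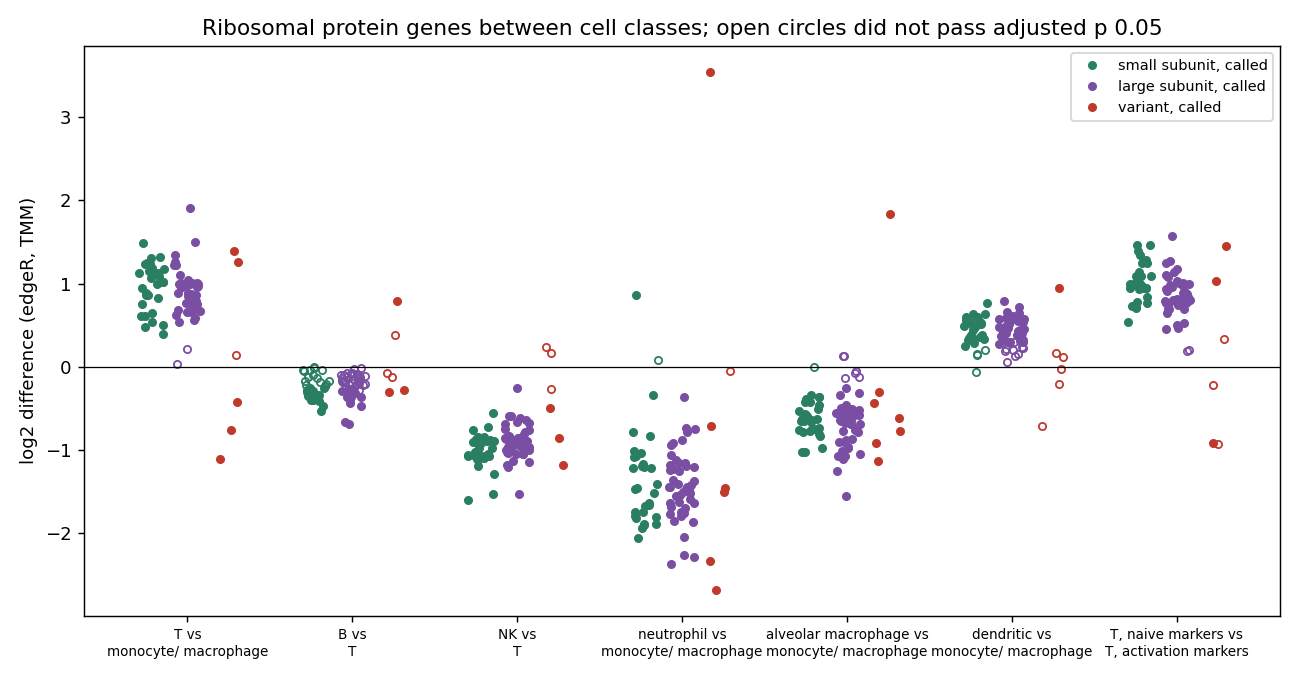
Log2 difference of each member (points; small subunit, large subunit and variants side by side) in 7 pairs of classes; filled points passed adjusted p 0.05 in edgeR. The family shifts together in each pair, and the points that leave it are mostly variants and, in neutrophils, Rps9.

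Neutrophils were below monocytes and macrophages in 80 of 84 members, where 40% of all genes were lower and 34.4% higher. The members' median was -1.45, and all genes had -0.17. Rpl10a had 182, 210, 122 and 172 CPM in neutrophils and 1438, 1407, 1402 and 1590 in monocytes and macrophages, a log2 difference of -2.36 ± 0.13. Rpl4, which lines the tunnel through which new proteins leave, was at -2.29 ± 0.13, Rpl36al at -2.33 ± 0.15 and Rps19bp1 at -2.68 ± 0.33. Rplp2, Rps15, Rpl22l1 and Rpl18 stood at the median, from -1.44 to -1.46. Rps27 (0.08) and Rps27rt (-0.05) were not called.

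Rps9, a small subunit protein that binds ribosomal RNA early in assembly, stood apart in neutrophils. It had 4095, 3777, 3441 and 4102 CPM there and 3530, 3583, 3345 and 3682 in monocytes and macrophages, higher in neutrophils in each of the 4 libraries, although the ranges of the groups overlapped. After TMM scaling its log2 difference was 0.87 ± 0.10 (edgeR adjusted p = 1.21e-06). With library totals it was 0.12 ± 0.10 and not called (adjusted p = 0.293). Rps9 made up 9.10% ± 0.959 of ribosomal protein UMIs in neutrophils (SD, n = 4) and 1.51 to 2.22% in the other 7 classes. It ranked first there, ahead of Rps27a (3.89% ± 0.238) and Rps27 (3.89% ± 0.484). Small-subunit UMIs exceeded large-subunit UMIs only in neutrophils among the 8 classes, with a ratio over standard members of 1.08 ± 0.0251 (SD, n = 4) against class means of 0.830 to 0.940 in the others. Without Rps9 the neutrophil ratio was 0.885 ± 0.00677, inside the 0.799 to 0.906 of the other classes. Rps9 lies on chromosome 7 from 3703993 to 3706897, and no other counted gene of GENCODE M21 overlaps it. Fau, whose product carries the ribosomal protein eS30 and which the rule does not match, also kept its level in neutrophils, at 4128 ± 337 CPM against 4514 ± 208 in monocytes and macrophages. Its log2 difference was 0.61 ± 0.10 after TMM scaling, the opposite sign of its CPM means.

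A few cells held much of the neutrophils' ribosomal protein RNA. In the 4 libraries, in the same order, 13, 11, 8 and 10 neutrophil-gated cells had a share over 10%, a limit set after seeing the values. They were 2.56 to 4.04% of the cells and held 34.5, 41.7, 23.5 and 26.7% of the ribosomal protein UMIs. Without them the share was 3.13, 3.23, 2.89 and 3.32%. These 42 cells had a median of 4849 UMIs and 3.40% mitochondrial UMIs, against 1706 and 0.402% in the other 1349. A monocyte/macrophage marker was detected in 35 of the 42 (83.3%) and in 34.5% of the others, and the part of such cells or of mixed droplets in the values was not tested. In the other 1349 cells Rps9 took 12.96, 11.2, 11.5 and 12.2% of ribosomal protein UMIs and ranked first in every library.

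Alveolar macrophages were below the other monocytes and macrophages in 76 of 84 members and above in 1, against 27.7% lower and 25.6% higher of all genes. The median of the members was -0.63 and that of all genes 0.00. Rpl29 had 36.0, 32.1, 29.7 and 44.8 CPM in alveolar macrophages and 93.9, 97.3, 82.3 and 91.4 in the others, a log2 difference of -1.55 ± 0.14. Rpl21 (-1.24 ± 0.08), Rpl36al (-1.13 ± 0.10) and Rpl18 (-1.10 ± 0.08) followed, with Rpl13a, Rps24 and Rps2 at -0.63 to -0.64. The acidic stalk proteins did not share the fall: Rplp1 had a log2 difference of 0.14 and Rplp2 of 0.13, neither called, and Rplp1 was the most counted member of the class, at 3.79% ± 0.182 of ribosomal protein UMIs.

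Dendritic cells were above monocytes and macrophages in 63 of 83 members, with none below, against 17.2% higher and 16.2% lower of all genes. The median of the members was 0.41 and that of all genes -0.01. Rps27l led with 0.94 ± 0.14, then Rplp1 with 0.80 ± 0.11, Rpsa, which also serves as a laminin receptor, with 0.77 ± 0.10, and Rpl13a with 0.72 ± 0.16. Rpsa had 4423, 4207, 4180 and 3948 CPM in dendritic cells and 2851, 2765, 2575 and 3047 in monocytes and macrophages, with no overlap. Rpl34, Rpl23, Rpl19 and Rpl27a lay at the median with 0.40 to 0.41. The class had 20 to 34 cells per library, and 49.5% of its cells failed a tighter gate. The number of higher members was 27 without WT 1, 46 without PD-L1 KO 1, 49 without WT 2, 35 with library totals and 37 with no filter on low counts. For these alternative fits too, the share of all genes called is not given here.

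Within T cells, those with markers of the naive state held far more ribosomal protein RNA than those with markers of activation. The share was 34.9, 36.2, 35.5 and 34.2% in naive-marked cells (89 to 216 per library) and 22.2, 20.4, 22.5 and 23.7% in activation-marked cells (26 to 49 per library). The difference was 12.99 points ± 2.17 (SD, n = 4 libraries), positive in every library. Of 83 members 77 were higher and 1 lower in naive-marked cells, against 15.1% higher and 14.9% lower of all genes, with a median of 0.91 for members and 0.00 for all genes. Rpl12 had 7051, 7212, 7333 and 6357 CPM in naive-marked and 2832, 2630, 2858 and 3260 in activation-marked cells. Its log2 difference was 1.57 ± 0.10, with Rps29 at 1.47 ± 0.08, Rps19 at 1.46 ± 0.10 and Rps27rt at 1.46 ± 0.19. Rpl39, Rpl17, Rpl19 and Rpl36 stood at the median with 0.88 to 0.94. The member that was lower was Rps27l (-0.91 ± 0.16), at 115 ± 14.4 CPM in naive-marked and 263 ± 45.4 in activation-marked cells.

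T cells with CD8 markers and naive markers had the highest share of the subsets formed, 38.8% ± 0.891 (177 cells), and naive-marked CD4 cells had 33.2% ± 1.59 (208 cells). Their library ranges did not overlap, 37.9 to 39.6% against 31.0 to 34.6%. Over all T cells, CD8 cells (32.2% ± 2.28) and CD4 cells (30.7% ± 2.34) overlapped. T cells with cycling markers, 57 in all, held 25.2% ± 1.15 and the rest 32.2% ± 1.12. The cycling cells were 15, 8, 15 and 19 per library, below the 20 asked of a class. Their library medians were 11940 to 13880 UMIs per cell, against 3784 to 4138 in the rest, and the part of depth was not tested. These values are descriptions without a test.

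Some variants departed from the family and others followed it. Rps27l was highest in dendritic cells, at 685, 345, 574 and 879 CPM, with 357 ± 73.8 in monocytes and macrophages and 169 ± 43.7 in T cells, where the standard members peaked. Rpl22l1, which can replace Rpl22, had 1033 ± 49.5 CPM in T cells, 830 ± 53.9 in B cells, 665 ± 11.6 in NK cells and 93.3 ± 20.7 in neutrophils. Its partner Rpl22 had 2014 ± 43.0, 1797 ± 106, 1295 ± 78.9 and 228 ± 17.9. Dendritic cells had less Rpl22l1 (323 ± 50.8) than NK cells while their Rpl22 was higher (1480 ± 102).

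Rpl3l, which replaces Rpl3 in striated muscle, was found in myeloid cells at low level. Neutrophils had 23.2, 31.4, 16.2 and 26.2 CPM and alveolar macrophages 13.03, 16.9, 15.4 and 9.48. Monocytes and macrophages had 3.14 ± 0.503, and NK and endothelial cells 0 UMIs in all 4 libraries. Rpl3l was called higher by edgeR against monocytes and macrophages in neutrophils (3.54 ± 0.35) and in alveolar macrophages (1.84 ± 0.35), the reverse of the standard members. Counts of the whole libraries were 117, 107, 102 and 97 UMIs. Over whole libraries Rps19bp1 had 32.3 CPM, Rpl7l1 56.7 and Rps27rt 63.6. Rpl39l, known from testis, had only 24, 14, 59 and 39 UMIs, and in alveolar macrophages 5.73, 2.67, 24.6 and 3.45 CPM, of which the high value is that of PD-L1 KO 1.

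**Figure D4:**
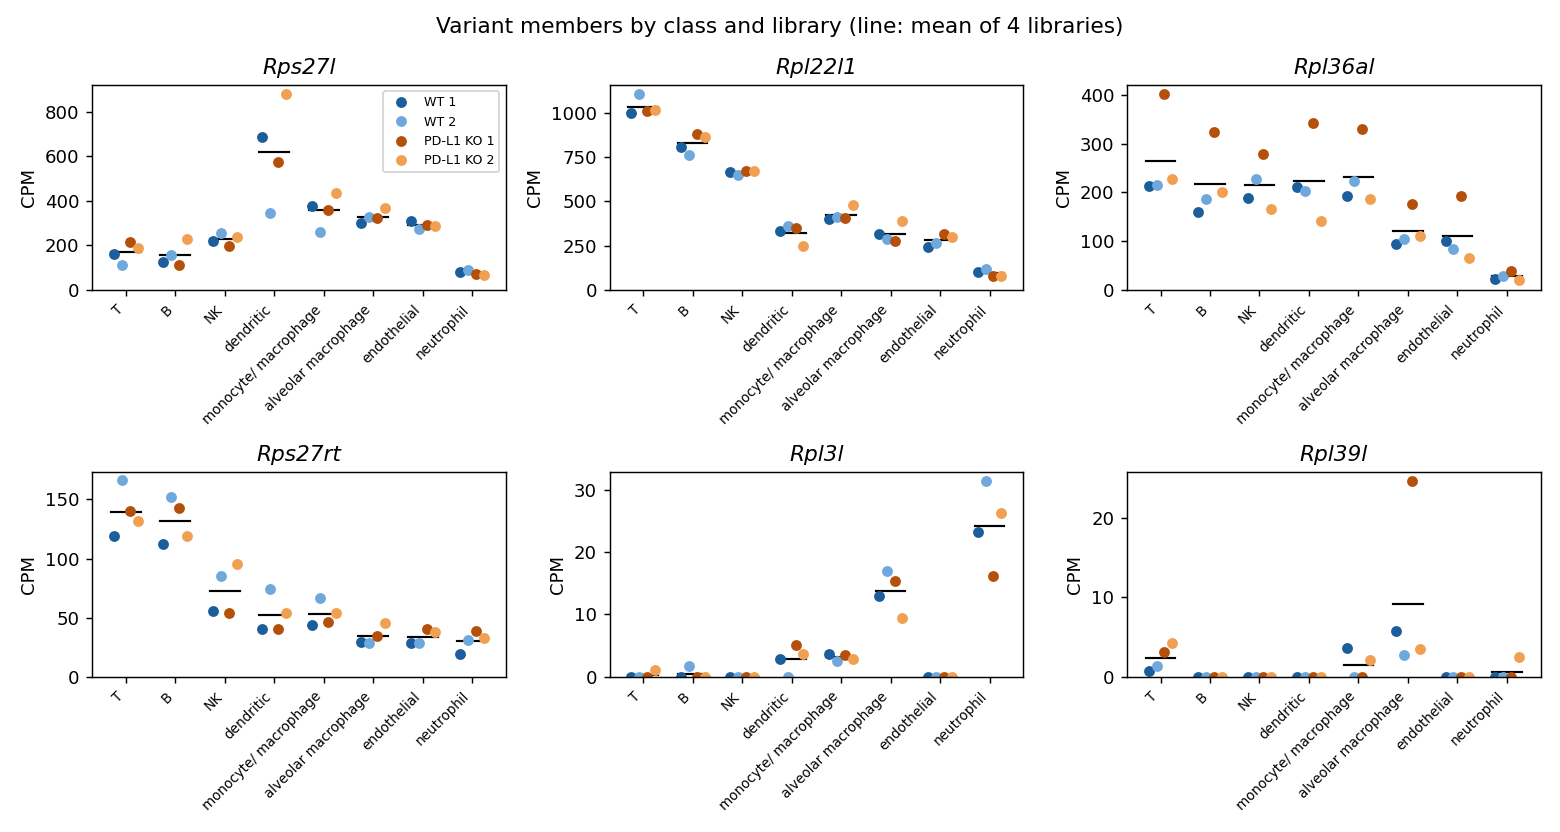
Level in CPM (y axes) of 6 variant members (panels) by class (x axis) and library (points), with the mean of 4 libraries as a line. Rps27l peaks in dendritic cells, Rpl22l1 in T cells and Rpl3l in neutrophils, and PD-L1 KO 1 is the highest library for Rpl36al in every class.

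Related gene lists were counted in the same fits. Fau and Rack1, ribosome parts outside the rule, were both higher in T cells than in monocytes/macrophages and both lower in NK than in T cells. A list of 20 other genes with TOP mRNAs, mostly translation factors, was also counted. In T cells 15 (75%) were higher and 0 lower than in monocytes/macrophages (all genes 31.6 and 31.7%). In NK cells 14 (70%) were lower than in T cells (all genes 13.8%). In B cells 9 (45%) were lower and 2 (10%) higher than in T cells (all genes 18.8 and 18.3%). Against monocytes/macrophages, 18 (90%) were lower and 1 (5%) higher in neutrophils (all genes 40 and 34.4%). In alveolar macrophages 14 (70%) were lower and 3 (15%) higher (all genes 27.7 and 25.6%), and in dendritic cells 9 (45%) higher (all genes 17.2%). In naive-marked T cells 11 (55%) were higher and 1 (5%) lower (all genes 15.1 and 14.9%). Tpt1, a TOP mRNA of a small calcium-binding protein, had 11992 ± 725 CPM in T cells, 6034 ± 318 in monocytes/macrophages and 2392 ± 175 in neutrophils. Eef1a1, the factor that brings aminoacyl-tRNA to the ribosome, had 8448 ± 233, 5013 ± 304 and 869 ± 70.3.

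Genes of ribosome assembly and of the mitochondrial ribosome were counted in the same way. Among ribosome biogenesis genes, 10 of 19 tested (52.6%) were higher and 1 (5.26%) lower in T cells than in monocytes/macrophages (all genes 31.6 and 31.7%). In neutrophils 14 of 18 (77.8%) were lower and 2 (11.1%) higher (all genes 40 and 34.4%). In naive-marked T cells 2 of 15 (13.3%, all genes 15.1%) were higher than in activation-marked T cells. Ncl, nucleolin, the most counted of them, was higher in T cells (0.77 ± 0.10) and did not pass in naive against activation-marked cells (0.05 ± 0.12). Of mitochondrial ribosomal protein genes, 9 of 77 (11.7%) were higher and 21 (27.3%) lower in T cells than in monocytes/macrophages, against 31.6% higher and 31.7% lower of all genes. In neutrophils 64 of 75 (85.3%) were lower and 5 higher, against 40% lower and 34.4% higher of all genes. Of regulators of this pathway, 5 of 14 tested (35.7%) were higher and 2 (14.3%) lower in T cells than in monocytes/macrophages, the former near the 31.6% of all genes. Larp1 was lower in neutrophils (-1.70 ± 0.25) and was not called between T cells and monocytes/macrophages (-0.12 ± 0.12).

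The study's own comparison, PD-L1 KO against WT tumour cells, called none of the members. In 9 edgeR fits, 0 of 82 to 85 members tested passed adjusted p 0.05. The share of all genes called was 0% in whole libraries, 0.0962% in T cells, 0.141% in NK cells, 0.0162% in B cells, 0.33% in neutrophils, 0% in monocytes/macrophages, 0% in alveolar macrophages, 0.0266% in dendritic and 0.0872% in endothelial cells. At an unadjusted p under 0.05 the members counted 1, 7, 2, 1, 3, 0, 2, 6 and 16 in the same order, and DESeq2 also called 0 in each fit. Of all genes, 3.8, 8.81, 6.14, 4.17, 5.52, 6.28, 5.05, 5.29 and 6.25% were below that p in these fits, so the members' counts were near or below the background except in endothelial cells (16 of 83, 19.3%) and, by less, in dendritic cells (6 of 82, 7.32%). The members' medians, with those of all genes in the same fits near 0, were 0.07 in whole libraries, -0.09 in T, 0.10 in NK, 0.01 in B, -0.14 in neutrophils, 0.05 in monocytes/macrophages, -0.02 in alveolar macrophages, -0.17 in dendritic and 0.16 in endothelial cells. Several of these medians changed sign under an alternative. In neutrophils the median was 0.16 with the stricter gate, 0.10 with the tighter gate, -0.27 with library totals, and -0.04 with the strict cell filter or without PD-L1 KO 1. With 1 library left out it ran from -0.18 (without WT 1) to 0.01 (without WT 2) in T cells, from -0.01 (without WT 1) to 0.19 (without WT 2) in NK cells, from -0.12 (without PD-L1 KO 2) to 0.14 (without PD-L1 KO 1) in B cells and from -0.01 (without PD-L1 KO 2) to 0.12 (without PD-L1 KO 1) in monocytes/macrophages. In whole libraries it was 0.12 without WT 1, 0.01 without WT 2 and 0.01 with library totals. A missed threshold with 2 libraries a group does not show that levels were equal.

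The share of ribosomal protein UMIs was set side by side without a test, and in some classes the groups did not overlap. With 2 libraries a group, such separation often arises without any group difference. Over all cells the share differed by -0.244 points, PD-L1 KO minus WT, with no overlap. The nearest libraries were close, with 17.02% in WT 1 and 16.92% in PD-L1 KO 2. In the whole-library fit, after TMM scaling, the members' median log2 difference had the other sign, at 0.07 with 69 of 85 members positive. T cells of the PD-L1 KO libraries had 30.3 and 30.1% and those of WT 30.6 and 33.2%, so the nearest libraries lay close. Of these T cells, naive-marked cells were 171 of 283 and 216 of 313 in WT, and 160 of 304 and 89 of 172 in PD-L1 KO. The part of this mix in the T cell difference was not tested. The T cell difference of -1.78 points was -0.474 points without WT 2 and -3.08 points without WT 1, and the median cell held 31.1% in both WT 1 and PD-L1 KO 1. Dendritic cells had 17.6 and 18.0% in PD-L1 KO and 20.1 and 19.8% in WT. Neutrophils had 3.58 and 4.22% against 4.36 and 4.92%. Endothelial cells were the other way, with 9.83 and 9.74% against 9.03 and 8.74%, as were activation-marked T cells, with 22.5 and 23.7% against 22.2 and 20.4%. NK, B, monocyte/macrophage, alveolar macrophage and naive-marked T cells overlapped. The neutrophil difference of -0.737 points was -0.417 points without PD-L1 KO 1, -0.455 points without WT 2, -0.060 points for the median cell and 0.069 points with a stricter gate. The difference of 1.83 points in activation-marked T cells was 0.944 points without WT 2 and 2.72 points without WT 1.

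The members with the smallest p in these fits did not pass the adjusted threshold. In T cells, Rps27l was 162 and 112 CPM in WT and 215 and 188 in PD-L1 KO, a log2 difference of 0.53 ± 0.18 (edgeR adjusted p = 0.410). Rps29 (-0.44 ± 0.15) and Rps27 (-0.39 ± 0.14) came next. Rps7 was the smallest in endothelial cells, with 0.35 ± 0.11 (edgeR adjusted p = 0.601), and in NK cells, with 0.28 ± 0.12. Rps29 led in dendritic cells (-0.48 ± 0.17), Rpl36a in neutrophils (-0.51 ± 0.20), Rps2 in monocytes/macrophages (0.35 ± 0.18), Rpl36al in B cells (0.64 ± 0.23) and in alveolar macrophages (0.53 ± 0.21), and Rpl39l in whole libraries (1.42 ± 0.42, edgeR adjusted p = 0.762). Leaving out WT 1 gave 3 of 85 members higher in whole libraries, where 6.02% of all genes were then higher and 7.89% lower. It gave 5 of 83 lower in T cells, where 0.226% of all genes were lower, and 1 of 82 lower in dendritic cells (all genes 0.483%). Leaving out PD-L1 KO 2 gave 1 higher in T cells (all genes 0.454%), 1 higher in B cells (0.233%), 1 lower in dendritic cells (0.0899%), 2 higher in endothelial cells (0.55%) and 2 higher and 1 lower in alveolar macrophages (0.935 and 0.201%).

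**Figure D5:**
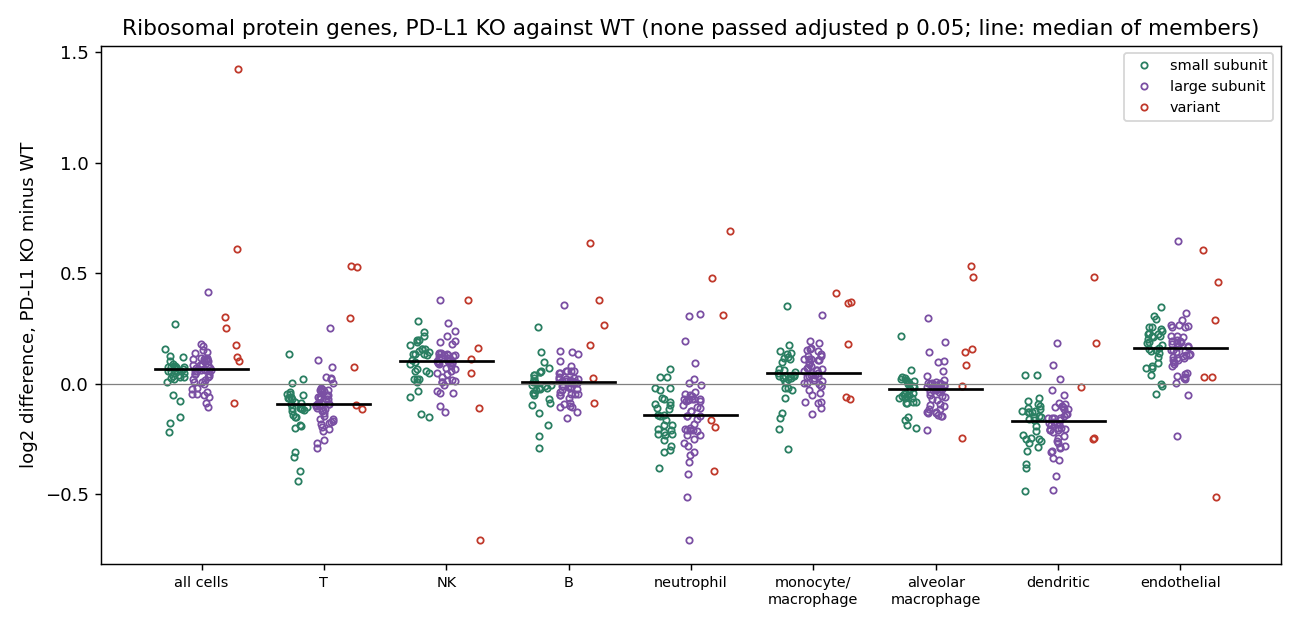
Log2 difference of each member (points) between PD-L1 KO and WT libraries, in whole libraries and 8 classes; lines are the medians of the members. No point passed adjusted p 0.05, and the medians lie between -0.17 and 0.16.

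In several of these members PD-L1 KO 1 was the highest or the lowest library in all 8 classes. Rpl36al, on chromosome 12 from 69182731 to 69184083, had 151 and 149 CPM in WT, 282 in PD-L1 KO 1 and 158 in PD-L1 KO 2. PD-L1 KO 1 was the highest library in all 8 classes, at 1.48 to 2.27 times the median of the others. Rpl27, on chromosome 11 from 101442298 to 101445529, had 247, 251, 374 and 264 CPM, and PD-L1 KO 1 was again highest in all 8 classes, at 1.09 to 2.18 times the others. Rps29 had 5057, 5852, 4095 and 5131 CPM, and PD-L1 KO 1 was lowest in all 8 classes for Rps29 and for Rps27. Rps27 had 3516, 4190, 2963 and 3375 CPM, both PD-L1 KO libraries below both WT libraries. In T cells the same held for Rps27 (7472, 9334, 6165 and 6990 CPM) and Rps29 (8575, 11064, 6788 and 8117). The groups overlapped for Rps27 in neutrophils and endothelial cells. For Rps29 they overlapped over whole libraries and in NK cells, neutrophils, monocytes/macrophages and endothelial cells. Neither gene passed the adjusted threshold in these fits. Rps29 lies on chromosome 12 from 69157722 to 69159186, near Rpl36al. Between libraries the coefficient of variation was 35.0% for Rpl36al, 21.3% for Rpl27, 14.5% for Rps27 and 14.3% for Rps29, the 4 highest among members above 10 CPM. Without PD-L1 KO 1 the endothelial log2 difference of Rpl27 went from 0.65 ± 0.24 to -0.09.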

How the data were processed

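The deposited files hold raw UMI counts per gene and barcode for 4 libraries, per the file headers and values; Cell Ranger 3.1.0, STAR and mm10 are named in the submitters' processing notes, while for the annotation release: not given in the sources used here. Cells were kept with at least 200 genes and at most 10% mitochondrial UMIs, and Scrublet (scanpy 1.11.5) removed 216 doublets after 1126 barcodes had failed the filter. A class needed at least 3 own markers, with other panels detected at no more than 1/3 of the own fraction, or 2/3 within a family. CPM are UMIs divided by the total of the library or class, as counts scaled to a common total. UMIs were summed per library and class and tested with edgeR 4.0.16 (R 4.3.3; filterByExpr, TMM, quasi-likelihood test, Benjamini-Hochberg over all genes, threshold 0.05): 9 fits of PD-L1 KO against WT (2 residual degrees of freedom) and 7 class pairs with the library as a block (3). The scripts were tested on simulated data. Named members were the 5 most counted, the variants, the 4 largest differences in each direction and 4 nearest the median per pair among called members above 10 CPM, and the 3 smallest p per group fit; list genes were the 4 most counted. Some genes that this rule names are not reported here. Members and lists were chosen with earlier results of these data known. Alternatives were DESeq2 1.42.0, library totals, TMM without the members, no low-count filter, other cell filters and gates, thinning to 1000 UMIs, the block, and each library left out. Differences smaller than the library spread cannot be seen with 4 libraries, at a counting half-width of at most 0.167 points of share in the 8 classes and 0.237 points in activation-marked T cells. The replicate numbers are shared by the groups, but no label says that they mark a common animal or day.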

Additional observations from a re-analysis of the deposited data

Results flagged for a closer look

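The share of ribosomal protein UMIs differed between PD-L1 KO and WT in opposite directions between some classes, with both libraries of each group on the same side. With 2 libraries a group, such separation often arises without any group difference. NK, B, monocyte/macrophage, alveolar macrophage and naive-marked T cells overlapped. PD-L1 KO minus WT was -1.78 points in T cells, -0.737 points in neutrophils and -2.20 points in dendritic cells, against 0.904 points in endothelial cells and 1.83 points in activation-marked T cells. The difference between classes was not tested. Activation-marked T cells are a subset of the T cells, which moved the other way. The mix of T cells also differed. Naive-marked cells were 171 of 283 and 216 of 313 T cells in WT, and 160 of 304 and 89 of 172 in PD-L1 KO. Within naive-marked cells the groups overlapped, at -0.703 points. The part of this mix in the T cell value was not tested. The T cell value was -0.474 points without WT 2, and the median T cell held 31.1% in both WT 1 and PD-L1 KO 1. The neutrophil value was -0.417 points without PD-L1 KO 1, -0.455 points without WT 2, -0.060 points for the median cell and 0.069 points under the stricter gate, and the activation-marked value was 0.944 points without WT 2 and 0.434 points after thinning.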

How the results depend on the processing

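Of 1179 single-member comparisons under the alternatives, 1122 kept direction and side of the threshold, 45 lost the call, 11 gained it and 1 reversed: Rpl27 in endothelial cells, to -0.087 without PD-L1 KO 1. Its range with 1 library left out was -0.087 to 1.04, the latter called without PD-L1 KO 2. The cause of the changes below was not tested. The mean share over all cells was 16.6% with every barcode, 16.2% with the strict cell filter, 15.2% as the median per cell, 17.8% without mitochondrial UMIs and 16.6% thinned. With the strict filter it was 29.5% in T, 17.6% in NK and 8.03% in endothelial cells. Without mitochondrial UMIs it was 32.7% in T, 28.0% in B, 16.7% in monocytes/macrophages, 12.7% in alveolar macrophages, 9.88% in endothelial and 37.2% in naive-marked T cells. With the stricter gate it was 33.2% in T, 24.7% in B and 2.97% in neutrophils. The median per cell was 16.2% in NK, 2.93% in neutrophils and 36.4% in naive-marked T cells. Thinning gave 17.0% in NK cells and 3.57% in neutrophils, and the tighter gate, chosen after seeing the data, 3.70% in neutrophils. PD-L1 KO minus WT was, for the median cell, -0.024 points over all cells, -0.060 in neutrophils and -1.88 in dendritic cells. Thinned it was -0.498 over all cells, -0.235 in neutrophils, 1.09 in endothelial and 0.434 in activation-marked T cells. It was 0.069 with the stricter gate and -0.105 with the tighter gate in neutrophils, 1.07 with the tighter gate and 0.493 with the strict filter in endothelial cells, and -1.95 with the strict filter in naive-marked T cells. Without the low-count filter, PD-L1 KO against WT called 2 of 85 members in T cells, both lower. There 31 of 14632 genes were lower and 87 higher. It also called 1 member in dendritic cells, for which the count over all genes is not given here. Leaving out 1 library gave 0 to 3 in whole libraries, 0 to 5 in T, 0 to 1 in B, 0 to 3 in alveolar macrophages, 0 to 1 in dendritic and 0 to 2 in endothelial cells. For the class pairs, the share of all genes called under each alternative is not given here, so the member counts of these pairs cannot be set against a background. Between classes, the strict filter called 1 lower in T cells against monocytes/macrophages. B against T had 0 higher with DESeq2, the strict filter and the stricter gate, and 15, 11 and 78 lower. Leaving out 1 library gave 1 to 2 higher and 9 to 32 lower there. Library totals called 1 higher in NK against T, 1 in neutrophils, 3 in alveolar macrophages, 35 in dendritic cells with 1 lower, and 2 lower in naive-marked cells. Alveolar macrophages had 2 higher without the low-count filter and 2 with the strict filter, and 1 to 2 with 1 library left out. Dendritic cells had 37 without the low-count filter and 27 to 63 with 1 library left out. With the replicate number as a block, PD-L1 KO against WT called 0 members in all 9 fits, and all genes called rose from 0 to 32 in monocytes/macrophages and from 6 to 24 in endothelial cells. The deviations of the first WT and PD-L1 KO libraries correlated at -0.336 over 13976 genes, and the numbers are treated as numbers only. The stricter gate left T, B, neutrophil and naive-marked T cells with enough cells, and the strict filter gave no fit for dendritic or activation-marked T cells.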
